A study of Arabidopsis thaliana with 30 samples.

Results

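The genes described here build the Casparian strip of the root endodermis in Arabidopsis thaliana. They are 7 genes chosen by name: the scaffold genes CASP1 (AT2G36100), CASP2 (AT3G11550), CASP4 (AT5G06200) and CASP5 (AT5G15290), the peroxidase gene PER64 (AT5G42180), the dirigent gene ESB1 (AT2G28670) and the regulator gene MYB36 (AT5G57620). Of these, 5 were among the 6297 genes that the deposited tables list for at least 1 line, and 3 were among the 1125 genes listed for all 5 lines. RNA was sequenced from whole seedlings, 10 days old, of wild type Col-0 (WT), of the mutants snrk1a-2, jmj15-2 and crf6-2, and of a line that overexpresses SnRK1a (SnRK1aOX). SnRK1a is the catalytic subunit of an energy-sensing protein kinase, JMJ15 is a histone demethylase and CRF6 is a transcription factor named for the cytokinin response. The seedlings grew on sugar-containing agar medium and were moved to liquid medium. There they stood for 5 h with 50 µM antimycin A, which blocks mitochondrial respiration at complex III, or with a mock solution, and 3 libraries were made for every line and treatment (30 libraries in 10 groups). The labels do not state the promoter of the SnRK1a transgene, how many independent lines it stands for, or whether seedlings were pooled. Whether the libraries of a group stem from separate cultures is not stated either, and the p-values therefore reflect a spread that may be technical.

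The Casparian strip is a belt of lignin in the walls between endodermal cells, and it seals the space between the cells so that solutes must pass through the cells themselves. CASP proteins sit in the plasma membrane as a scaffold that marks the place of the belt. Peroxidases such as PER64 and dirigent proteins such as ESB1 gather there to polymerise and arrange the lignin, and the transcription factor MYB36 switches on CASP and PER64 genes as endodermal cells differentiate. Surveillance by the receptor kinase GSO1 and its peptide ligands, and later the deposition of suberin, complete the barrier.

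For each line 1 table was deposited, and only genes called changed by antimycin A are in it (q below 0.05, log2 fold change beyond 1 in either direction). A gene that is not in a table is therefore not listed, which does not show that it was unchanged. Values are read numbers scaled for library size by the authors, table by table, and are called adjusted counts here. Depth per library is unknown. Since every table has its own normalisation, each change was taken inside 1 table, and only such changes were tested between lines. Levels set beside each other across lines are descriptions without a test.

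The 4 scaffold genes are close relatives, and their sequences bear on whether reads can be assigned to each of them. In the RefSeq annotation of TAIR10.1 each has 3 exons and 1 transcript. CASP1 lies at chr2:15159591-15160799 on the minus strand, CASP2 at chr3:3638178-3639348 on the plus strand, CASP4 at chr5:1877134-1878324 on the plus strand and CASP5 at chr5:4967011-4968092 on the plus strand. The second exon has 124 bases in every one of the 4 genes, and it is shown because it can be aligned base for base. It is given 5′ to 3′ on the strand of the gene, and capitals mark the 44 positions (35.5%) at which all 4 genes carry the same base.
CASP1: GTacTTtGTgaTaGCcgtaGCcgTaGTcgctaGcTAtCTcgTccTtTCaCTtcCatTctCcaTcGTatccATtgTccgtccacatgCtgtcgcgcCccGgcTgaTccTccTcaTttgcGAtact
CASP2: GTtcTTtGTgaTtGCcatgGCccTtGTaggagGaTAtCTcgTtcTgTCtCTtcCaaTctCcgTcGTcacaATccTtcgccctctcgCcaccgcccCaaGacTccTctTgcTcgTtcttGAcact
CASP4: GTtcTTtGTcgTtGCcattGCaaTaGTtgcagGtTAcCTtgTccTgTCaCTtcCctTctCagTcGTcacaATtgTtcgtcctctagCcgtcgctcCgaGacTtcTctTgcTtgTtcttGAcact
CASP5: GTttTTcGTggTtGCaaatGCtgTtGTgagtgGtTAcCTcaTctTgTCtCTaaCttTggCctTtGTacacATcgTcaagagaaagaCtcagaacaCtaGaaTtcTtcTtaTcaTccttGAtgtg
Identity over this exon was highest between CASP2 and CASP4, at 79.0%, and lowest between CASP1 and CASP5, at 50.0%. The longest run shared by any 2 of the 4 transcripts was 20 bases, between CASP2 and CASP4. None of the 30-base windows of the 4 transcripts occurred elsewhere in the genome, and the same was true of PER64 and MYB36, whereas 84 of the 1615 windows of ESB1 (5.20%) did. Some members overlap a gene on the other strand, and no source used here states that counting used strand. CASP1 shares 49 bases with the F-box gene AT2G36090, CASP5 shares 4 bases with AT5G15300, PER64 (chr5:16852628-16854224, plus strand, 4 exons) shares 34 bases with AT5G42190, and ESB1 (chr2:12300265-12302358, minus strand) shares 1772 bases with AT2G28671. MYB36 (chr5:23334767-23336632, plus strand) overlaps no annotated gene.

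The 250 bases before the annotated start of a gene were read from the same genome for the 3 genes listed in all 5 tables, since these were lower together. Their windows do not run into a neighbouring gene. They are given 5′ to 3′ on the strand of the gene, with capitals for a match on either strand to TATAAA or to ACCNAAC, an AC element of the kind that MYB factors bind.
CASP1 (chr2:15160800-15161049, minus strand): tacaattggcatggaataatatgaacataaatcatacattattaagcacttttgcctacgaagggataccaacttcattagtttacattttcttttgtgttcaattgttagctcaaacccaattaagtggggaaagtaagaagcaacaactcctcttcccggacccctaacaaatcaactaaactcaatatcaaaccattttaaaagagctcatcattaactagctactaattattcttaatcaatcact
CASP4 (chr5:1876884-1877133, plus strand): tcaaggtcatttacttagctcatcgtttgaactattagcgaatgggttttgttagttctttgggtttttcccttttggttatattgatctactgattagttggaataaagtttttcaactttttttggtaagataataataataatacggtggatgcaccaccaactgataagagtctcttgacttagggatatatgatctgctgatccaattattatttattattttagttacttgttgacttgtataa
PER64 (chr5:16852378-16852627, plus strand): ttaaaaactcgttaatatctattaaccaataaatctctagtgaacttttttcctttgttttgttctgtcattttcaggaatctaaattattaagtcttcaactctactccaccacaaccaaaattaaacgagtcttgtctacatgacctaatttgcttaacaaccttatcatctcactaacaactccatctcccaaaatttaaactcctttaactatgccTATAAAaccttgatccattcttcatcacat
Among these windows, PER64 alone held a match, to TATAAA. Of the 7 members, 2 held ACCNAAC in this window (CASP5 and ESB1, each as GTTTGGT on the strand of the gene), against 14.5% of 27443 protein-coding genes. The related element ACCNACC was in 0 of 7 windows, against 6.10% of all, and TATAAA was in 4 of 7, against 47.3% of all. Both strands were searched, and ACCNAAC and ACCNACC differ in their sixth letter, so they cannot match from the same base. A match is a description of the letters and not a binding site.

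Casparian strip genes were listed lower after antimycin A in every line, and none was listed higher, where 5.83% of all tested genes were listed higher in WT, 7.17% in snrk1a-2, 6.63% in jmj15-2, 6.97% in crf6-2 and 5.55% in SnRK1aOX. In WT, 4 of the 7 genes were listed lower (CASP1, CASP2, CASP4 and PER64), where 8.84% of the 23742 genes that the authors had tested were. In snrk1a-2, 5 of 7 were listed lower, against 10.1% of all genes, in jmj15-2 4 of 7 against 6.04%, in crf6-2 4 of 7 against 7.71% and in SnRK1aOX 4 of 7 against 3.67%. The 7 genes were chosen with earlier results of these data known, so these shares are a description and not a test. CASP1, CASP4 and PER64 were listed in every line. CASP2 was not listed in jmj15-2 and SnRK1aOX, CASP5 was not listed in WT and crf6-2, and ESB1 and MYB36 were in no table. In whole seedlings, fewer endodermal cells and less RNA per endodermal cell cannot be told apart.

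A refit of log2(adjusted count + 1) with limma gave each change an error. The added 1 draws in the changes of low genes, yet refit values of low members lay on either side of the authors' own. They were -4.18 against the authors' -3.94 for CASP5 in snrk1a-2, and -3.80 against -3.97 for CASP4 in WT. At an adjusted p under 0.05, counted over all genes that the authors had tested, 4 of 4 listed members passed in WT, 5 of 5 in snrk1a-2, 2 of 4 in jmj15-2, 4 of 4 in crf6-2, but 0 of 4 in SnRK1aOX. Shares of all tested genes that passed as lower were 6.49% in WT, 8.26% in snrk1a-2, 3.9% in jmj15-2, 5.06% in crf6-2 and 2.31% in SnRK1aOX, and among the genes listed lower they were 73.5%, 81.8%, 64.6%, 65.7% and 62.9%. Only listed genes could be refitted, so the shares of all tested genes count every unlisted gene as not passing. In SnRK1aOX all 4 listed members had an unadjusted p under 0.05, as did 97.8% of the genes in that table. The median log2 change of the listed members was -2.11 in WT, -2.46 in snrk1a-2, -1.98 in jmj15-2, -2.24 in crf6-2, with -1.99 in SnRK1aOX. Medians of all genes listed lower were -1.65, -1.68, -1.62, -1.59 and -1.46 in the same order.

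**Figure D1:**
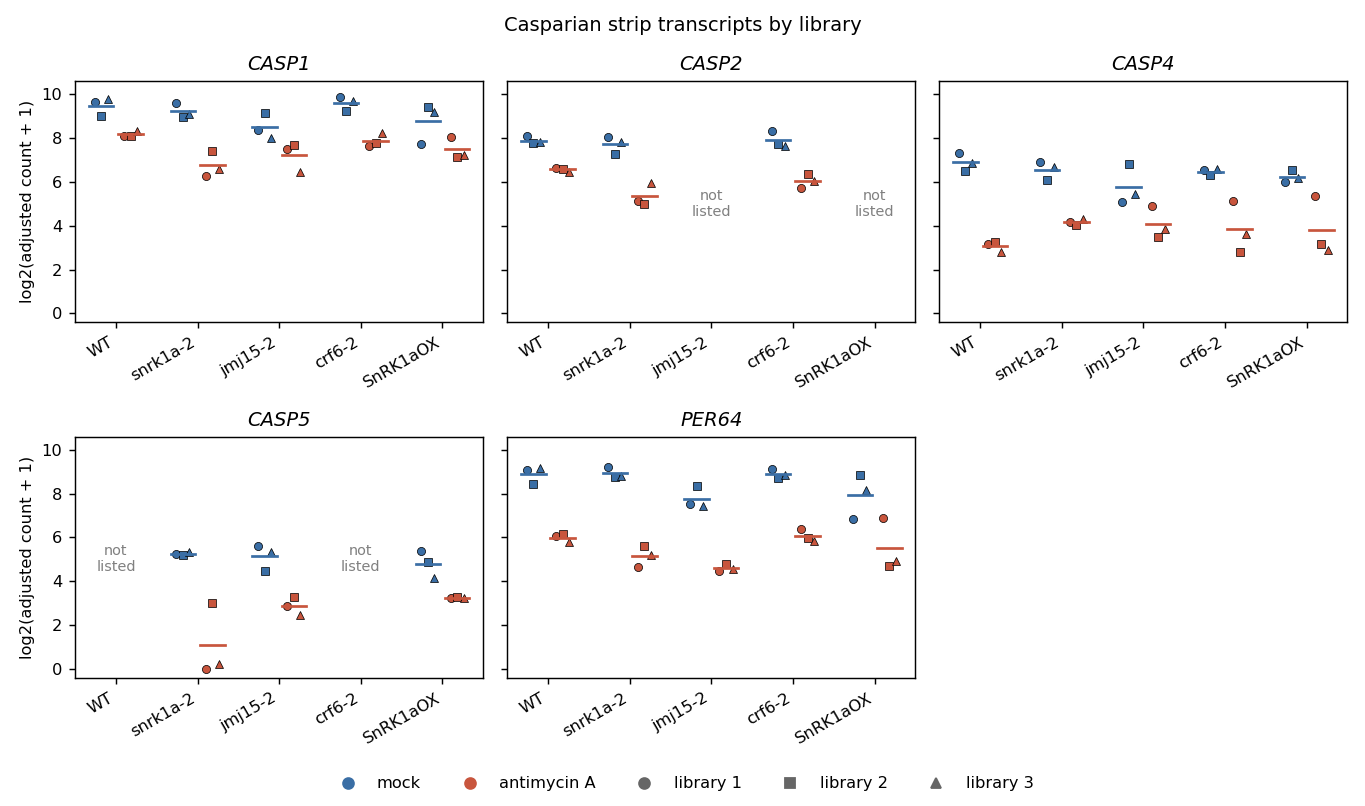
Level of the 5 listed Casparian strip genes in each library, as log2(adjusted count + 1), by line, with mock libraries in blue, antimycin A libraries in red, a symbol for each library number and a bar at the group mean. Treated libraries lie below mock libraries in every panel except in SnRK1aOX, where the treated library 1 lies above the mock library 1 for CASP1 and PER64.

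CASP1, the scaffold gene with the highest level per kilobase of transcript, had with CASP2 the smallest changes in WT. Its adjusted counts there were 797, 513 and 883 in mock libraries and 269, 271 and 324 after antimycin A. The groups did not overlap, and the log2 change was -1.31 ± 0.23 (SE, n = 3 per group, limma adjusted p = 0.00482). In snrk1a-2 mock libraries held 768, 493 and 549 and treated libraries 76.1, 170.2 and 94.4, a change of -2.46 ± 0.33 (limma adjusted p = 0.000777). Every treated library of this mutant was below every treated library of WT, on scales that were normalised separately. In crf6-2 the counts went from 937, 596 and 819 to 197, 220.4 and 297, a change of -1.71 ± 0.24 (limma adjusted p = 0.00187). In jmj15-2 they were 327, 560.1 and 252 in mock and 181, 206 and 86.3 after treatment, which do not overlap but gave -1.27 ± 0.40 (limma adjusted p = 0.119). In SnRK1aOX they were 214, 681 and 576 in mock and 267, 139 and 151 after treatment, so that the mock library 1 lay below the treated library 1, and the change was -1.30 ± 0.47 (limma adjusted p = 0.297). With 1 library of that line left out it ranged from -0.98 without the mock library 2 (limma adjusted p = 1) to -1.81 without the mock library 1 (limma adjusted p = 0.0304), and only the latter passed. AT2G36090, the F-box gene that overlaps the end of CASP1 on the other strand, was itself listed lower in all 5 lines, at -2.56 ± 0.24 in WT, and the part of shared reads was not tested.

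CASP2 was listed in 3 lines, and all of its groups were apart. In WT the mock libraries held 271, 217 and 222 adjusted counts and the treated libraries 99.4, 95.8 and 86.7, and CASP2 changed by -1.32 ± 0.23 (SE, n = 3 per group, limma adjusted p = 0.0048). In snrk1a-2 it went from 268, 154 and 226 to 33.5, 31.0 and 60.05, by -2.38 ± 0.36 (limma adjusted p = 0.00148). In crf6-2 it went from 314, 209 and 201 to 51.2, 80.2 and 65.1, by -1.86 ± 0.30 (limma adjusted p = 0.00396). CASP1 and CASP2 thus kept 39.4% and 39.7% of their mock mean in WT, and 18.8% and 19.2% in snrk1a-2.

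CASP4 showed the largest change of any member in WT. It went from 157, 88.3 and 117 adjusted counts in mock libraries to 8.11, 8.68 and 5.98, or 6.29% of the mock mean, a change of -3.80 ± 0.40 (SE, n = 3 per group, limma adjusted p = 0.000395). The treated WT libraries lay close together and far below the lowest mock library. In snrk1a-2 the counts went from 121, 67.6 and 100.5 to 16.9, 15.4 and 19.0, a change of -2.39 ± 0.37 (limma adjusted p = 0.00162). In crf6-2 they were 92.6, 78.1 and 93.8 in mock and 33.6, 5.96 and 11.4 after treatment, a change of -2.62 ± 0.58 (limma adjusted p = 0.0203). Treated crf6-2 libraries varied widely here. That change was -3.26 without the treated library 1 and -2.10 without the treated library 2 (limma adjusted p = 0.0552), and the call was also lost without the treated library 3 (0.0802) or the mock library 1 (0.1001) or 3 (0.0997). In jmj15-2 the counts were 32.9, 111 and 42.6 against 29.2, 10.3 and 13.5, a change of -1.69 ± 0.59 (limma adjusted p = 0.175). In SnRK1aOX they were 62.7, 92.5 and 70.5 against 39.4, 8.03 and 6.55, a change of -2.42 ± 0.65 (limma adjusted p = 0.0865). Neither of these last lines had overlapping groups, and the treated library 1 was the highest of its group in both. With 1 library of SnRK1aOX left out the change there ranged from -1.98 without the treated library 3 (limma adjusted p = 0.306) to -3.19 without the treated library 1 (limma adjusted p = 0.0182), and only the latter passed.

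CASP5, the scaffold gene with the lowest counts, was listed in 3 lines and its groups were apart in each. In snrk1a-2 the mock libraries held 36.7, 35.3 and 39.8 adjusted counts, and the treated libraries 0, 6.96 and 0.188. The change was -4.18 ± 0.78 (SE, n = 3 per group, limma adjusted p = 0.00437), a size that depends on the 1 added before taking logs. It was -5.13 without the treated library 2, which held most of the remaining count. In jmj15-2 CASP5 went from 48.4, 21.2 and 39.2 to 6.30, 8.80 and 4.54, a change of -2.27 ± 0.50 (limma adjusted p = 0.0237). The call was lost without the mock library 1 (limma adjusted p = 0.111) or 3 (0.0804) or the treated library 1 (0.0878) or 3 (0.0843). In SnRK1aOX CASP5 went from 41.0, 28.2 and 17.1 to 8.35, 8.87 and 8.51, a change of -1.55 ± 0.43 (limma adjusted p = 0.103). It did not show the order of libraries seen for the other members in this line, since its mock library 1 was the highest.

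PER64, a peroxidase gene of the strip, passed the refit in every line but SnRK1aOX. Its adjusted counts in WT were 542, 348 and 570.1 in mock libraries and 65.9, 69.6 and 53.8 after antimycin A, a change of -2.90 ± 0.27 (SE, n = 3 per group, limma adjusted p = 0.000254). In crf6-2 they were 558, 422 and 453 against 81.8, 62.7 and 56.3, a change of -2.82 ± 0.24 (limma adjusted p = 0.000266). These lines kept 13.0% and 14.0% of the mock mean. In snrk1a-2 the counts were 589, 432 and 448 against 24.0, 48.5 and 35.6, a change of -3.77 ± 0.32 (limma adjusted p = 0.000182). In jmj15-2 they were 182, 321 and 174 against 21.02, 26.6 and 22.3, a change of -3.17 ± 0.34 (limma adjusted p = 0.00053). PER64 was the member with the smallest adjusted p in WT, snrk1a-2, jmj15-2 and crf6-2, and the groups were apart in all 4. In SnRK1aOX they were 114, 455 and 288 against 119, 24.8 and 28.9, overlapping through the libraries numbered 1, and the change was -2.45 ± 0.70 (limma adjusted p = 0.116). With 1 library left out it ranged from -2.01 without the mock library 2 (limma adjusted p = 0.445) to -3.15 without the treated library 1 (limma adjusted p = 0.0419), and only the latter passed.

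**Figure D2:**
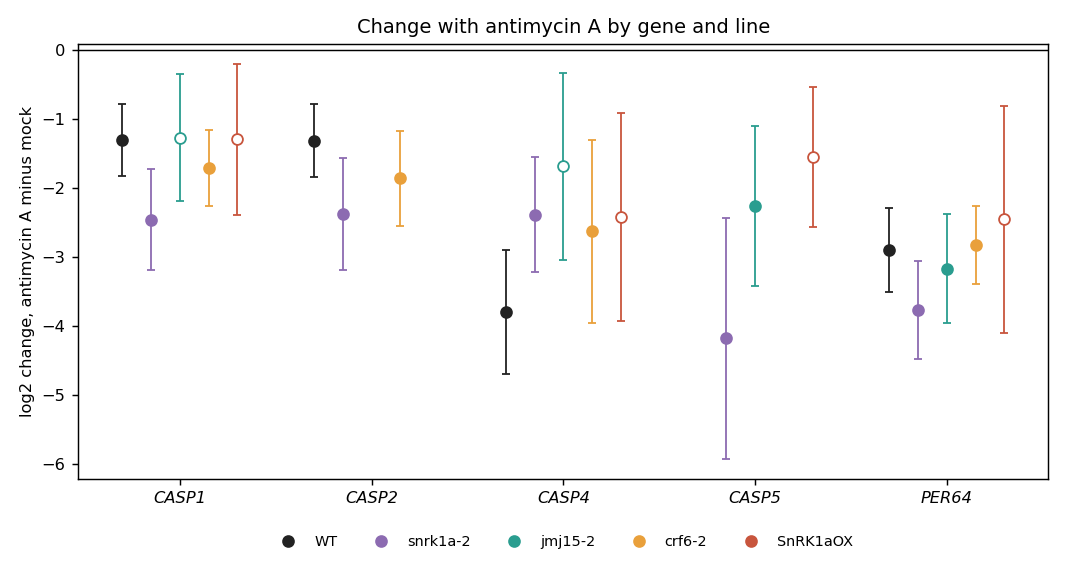
Log2 change of each listed Casparian strip gene with antimycin A, treated minus mock, by line. Bars are 95% confidence intervals from limma, filled points have an adjusted p under 0.05 and open points do not, and a gene without a point was not listed in that line. All points lie below 0, with CASP4 in WT and CASP5 in snrk1a-2 among the lowest.

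The order of the members by level differed between mock and treated WT seedlings. Per kilobase of transcript, mock levels were 809 ± 214 (SD, n = 3) for CASP1, 395 ± 98.3 for PER64, 238 ± 29.97 for CASP2 and 119 ± 34.0 for CASP4. Neighbours in this order were further apart than their summed SDs. After antimycin A the levels per kilobase were 319 ± 34.5 for CASP1, 94.4 ± 6.56 for CASP2, 51.3 ± 6.71 for PER64 and 7.47 ± 1.40 for CASP4, with all neighbours further apart than their SDs. PER64 thus moved below CASP2.

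In SnRK1aOX the mock library 1 was the lowest of its group, and the treated library 1 the highest of its group, for CASP1, CASP4 and PER64. With the 2 groups centred, the mean of the 4 listed members lay at -0.45 from the group mean in the mock library 1 and at 0.87 from it in the treated library 1, on the log2 scale. Over all genes of that table with a mean of at least 50, a scale ran from the mean mock profile at 0 to the mean treated profile at 1. On it the mock library 1 lay at 0.04 and the treated library 1 at 1.06. This scale shows only deviations along the treatment change. Over the same genes the deviations of these 2 libraries from their group means correlated at -0.43. Mock and treated libraries of this line with different numbers ranged from -0.45 to 0.53, so this value does not set the pair apart. The list of other dirigent, peroxidase and laccase genes lay at -0.57 in the mock library 1 and 0.42 in the treated library 1. With both libraries numbered 1 left out, which leaves 2 per group, the changes were -2.10 for CASP1, -3.31 for CASP4, -1.24 for CASP5 and -3.71 for PER64. These libraries were picked for the members' own values, so these changes are a description and no call was drawn from them. Groups of the full set did not overlap for 2 of 4 members in SnRK1aOX, against 93.1% of the genes listed lower there. In WT, snrk1a-2, jmj15-2 and crf6-2 the groups were apart for all 4, 5, 4 and 4 listed members, against 93.9%, 96.8%, 93.4% and 90.5% of the genes listed lower.

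Whether the lines alter the response was tested as the difference between the change in a line and the change in WT, over the genes listed in both tables. A gene whose change missed the authors' thresholds in either line could not enter. CASP2 was thus left out in jmj15-2 and SnRK1aOX, and CASP5, not listed in WT, in all lines. The test cannot show a response that was lost in a line. No member passed an adjusted p of 0.05 in limma: 0 of 4 in snrk1a-2, where 0% of 2440 genes passed, 0 of 3 in jmj15-2 (2.24% of 2057), 0 of 4 in crf6-2 (0% of 2440) and 0 of 3 in SnRK1aOX (0.131% of 1530). At an unadjusted p under 0.05 the counts were 3, 1, 0 and 0, where 7.54%, 14.2%, 4.51% and 9.67% of all genes did. The change of CASP4 was less negative in all 4 lines than in WT as a point value, and these values share the WT libraries. Its difference was 1.41 ± 0.53 in snrk1a-2 (95% interval 0.28 to 2.53, limma adjusted p = 0.565), 2.11 ± 0.73 in jmj15-2 (0.54 to 3.68, adjusted p = 0.174), 1.18 ± 0.72 in crf6-2 (-0.38 to 2.74, adjusted p = 0.996) and 1.38 ± 0.78 in SnRK1aOX (-0.31 to 3.06, adjusted p = 0.633). In snrk1a-2 the point values of the other members went the opposite way. There the difference was -1.15 ± 0.43 for CASP1 (95% interval -2.07 to -0.23), -1.06 ± 0.44 for CASP2 (-1.996 to -0.12) and -0.87 ± 0.43 for PER64 (-1.78 to 0.05), with limma adjusted p from 0.565 to 0.665. For PER64 the interval was -1.20 to 0.67 in jmj15-2, -0.71 to 0.86 in crf6-2 and -1.32 to 2.22 in SnRK1aOX, so that differences of about 1 on the log2 scale remain possible in either direction in SnRK1aOX.

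Mock levels of the members also varied between lines, on scales that were set separately and without a test. In jmj15-2 the 3 genes listed in all tables had 0.464 to 0.519 of the WT mock level, where the median of 1123 genes listed in all tables was 0.707 (quartiles 0.507 and 0.939). In SnRK1aOX the 3 genes were at 0.587 to 0.671 (median of all 0.698). In snrk1a-2 the 4 members listed in both tables were at 0.798 to 1.01 (median of all 0.924), and in crf6-2 at 0.730 to 1.07 (0.832).

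Members also varied together from library to library. With the mean of each group removed, the correlation over the 30 libraries was 0.76 between CASP1 and PER64, 0.65 between CASP4 and PER64 and 0.39 between CASP1 and CASP4. These are descriptions, since genes of a library share its RNA and its scaling. Other root transcripts moved with them to different extents: the same correlation of the members with a list of other dirigent, peroxidase and laccase genes was 0.71. It was 0.59 with root hair markers, 0.20 with stele markers and -0.30 with the cortex markers. In SnRK1aOX the root hair list is 1 gene, PRP1 (AT1G54970). Its deviations there ran from -2.14 to 1.89 and weigh heavily in the 0.59. The stele list is likewise 1 gene, WOL (AT2G01830), in jmj15-2, crf6-2 and SnRK1aOX. The part of root content or of the cells sampled in these deviations was not tested.

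**Figure D3:**
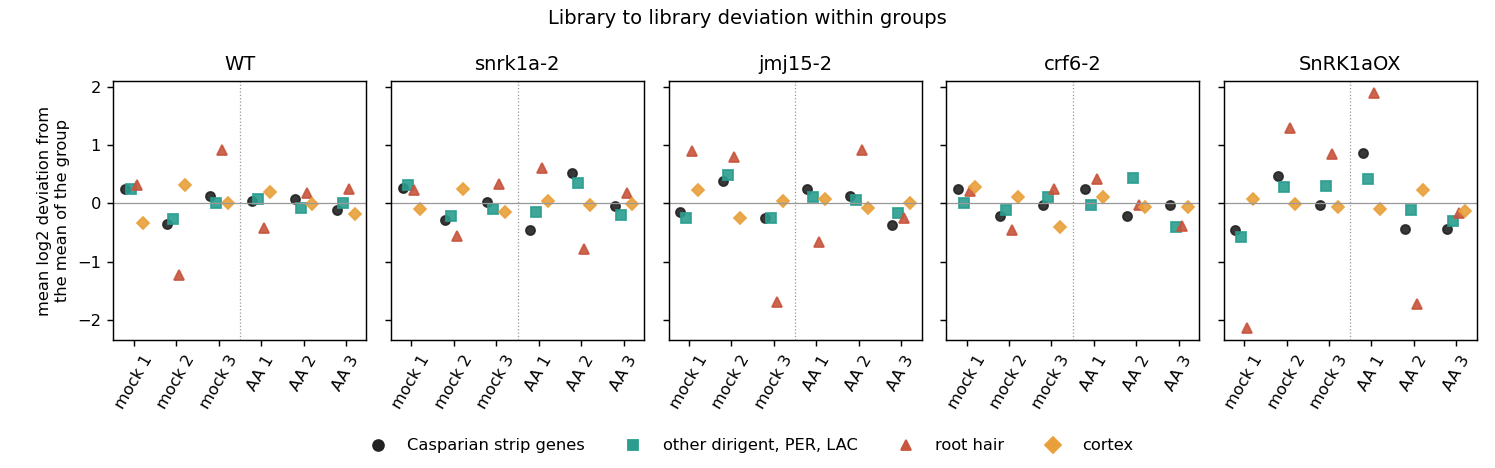
Mean deviation of each library from its group mean, on the log2 scale, for the listed Casparian strip genes and 3 other gene lists, by line, with mock and antimycin A (AA) libraries split by a dotted line. In SnRK1aOX the Casparian strip genes are at -0.45 in mock library 1 and 0.87 in treated library 1, where the root hair value (1 listed gene) is -2.14 and 1.89 and the cortex value stays near 0.

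By a fixed rule, the 5 genes whose profile was most like that of the members over the 30 libraries, each table centred, were the cytochrome P450 gene CYP718 (AT2G42850, r = 0.98), the peroxidase gene AT4G30170 (0.97), ABCG35 (AT1G15210, a membrane transporter, 0.97), the peroxidase gene AT1G44970 (0.96) and UGT72E2 (AT5G66690, a glycosyltransferase that acts on monolignols, 0.96). The profile was the mean of the 3 members listed in all tables, and 1121 genes were compared, whose upper quartile of r was 0.90 on this scale. With the group means removed as well, these values were 0.86, 0.84, 0.79, 0.72 and 0.81, against a median of 0.10 over the compared genes, and 4 of the 5 genes stayed among the top 5. The 5 genes were picked on profiles that hold these same deviations, so the second set of values is not a separate check. In WT the 5 genes were lower by log2 changes from -1.95 (ABCG35) to -3.90 (AT1G44970).

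Gene lists around the strip were described beside the members, as counts of genes that the authors listed. Of 12 genes for assembly and surveillance, 3 were listed lower in WT, 4 in snrk1a-2, 1 in jmj15-2, 3 in crf6-2 and 0 in SnRK1aOX, and 7 were in no table. The uclacyanin gene UCC1 (AT2G32300) fell by 1.58 ± 0.23 in WT (limma adjusted p = 0.0015), and GSO1 (AT4G20140), the receptor kinase that monitors the seal, fell by 1.14 ± 0.27 (limma adjusted p = 0.0229). GSO2 (AT5G44700), a close relative of GSO1, was at -0.98 ± 0.30 in WT (limma adjusted p = 0.083). Named after its values were seen, UCC2 (AT2G44790) was listed higher in jmj15-2, crf6-2 and SnRK1aOX, and passed in jmj15-2 at 1.70 ± 0.24 (limma adjusted p = 0.00216).

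Of 8 genes in a list of endodermal transcription factors without MYB36, 3 were listed lower in WT, 2 in snrk1a-2, 0 in jmj15-2, 2 in crf6-2 and 0 in SnRK1aOX. SHR (AT4G37650), which moves from the stele to specify the endodermis, fell by 1.09 ± 0.15 in WT (limma adjusted p = 0.00119). JKD (AT5G03150), a zinc finger partner of SHR, fell by 1.25 ± 0.13 (limma adjusted p = 0.000436), and NUC (AT5G44160), of the same family, fell by 1.37 ± 0.24 (limma adjusted p = 0.00451). As point values in WT, with no test between genes, these changes were smaller than those of CASP4 and PER64 and close to those of CASP1 (-1.31) and CASP2 (-1.32). MYB68 (AT5G65790), named after its values were seen, was listed higher in jmj15-2 and SnRK1aOX, at 1.46 ± 0.33 and 1.72 ± 0.25 (limma adjusted p = 0.0243 and 0.00715).

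Of 18 other dirigent, peroxidase and laccase genes of the endodermis 12, 11, 9, 10 and 8 were listed lower in WT, snrk1a-2, jmj15-2, crf6-2 and SnRK1aOX, none was listed higher, and 7 were listed lower in all 5 lines. Those 7 are the dirigent-like genes AT2G39430, AT3G24020, AT4G13580 and AT3G55230, the peroxidase genes AT1G44970 and AT4G11290, and LAC3 (AT2G30210), a laccase. AT1G44970 had the largest of these changes in WT at -3.90 ± 0.39 (limma adjusted p = 0.000339), close to that of CASP4, and -4.77 ± 0.38 in snrk1a-2 (limma adjusted p = 0.000181). LAC3 ranged from -3.06 ± 0.43 in SnRK1aOX (limma adjusted p = 0.00668) to -3.51 ± 0.31 in snrk1a-2 (limma adjusted p = 0.000194). In SnRK1aOX 6 of the 8 listed genes passed the refit, where 62.9% of all genes listed lower in that line did and no member did. Among other genes of this list in WT, LAC5 (AT2G40370) was at -2.20 ± 0.43 (limma adjusted p = 0.00848), RCI3 (AT1G05260) at -1.73 ± 0.27 (limma adjusted p = 0.00232), LAC13 (AT5G07130) at -1.23 ± 0.29 (limma adjusted p = 0.021), and the peroxidase gene AT2G18150 at -1.29 ± 0.47 (limma adjusted p = 0.164).

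Suberin, the waxy polyester laid down after the strip, was covered by 19 genes, of which 9, 5, 4, 4 and 1 were listed lower in the same order of lines. In WT the largest fall was that of MYB93 (AT1G34670), a transcription factor, at -3.48 ± 0.55 (limma adjusted p = 0.00266). CYP86B1 (AT5G23190), which hydroxylates very long fatty acids, was at -2.66 ± 0.62 (limma adjusted p = 0.0211), ABCG6 (AT5G13580), a transporter, at -2.13 ± 0.41 (limma adjusted p = 0.00811), and CYP86A1 (AT5G58860), a fatty acid hydroxylase, at -2.01 ± 0.28 (limma adjusted p = 0.00129). MYB39 (AT4G17785), a regulator of suberin, went the other way and was listed higher in all 5 lines, at 3.92 ± 0.58 in jmj15-2 (limma adjusted p = 0.00262) and 2.57 ± 0.71 in WT (limma adjusted p = 0.0511). Its WT counts were low, at most 12.2 in any library. Of 14 genes of monolignol synthesis, which supplies the lignin of all tissues, 12 were in no table. PAL4 (AT3G10340), a phenylalanine ammonia-lyase, was listed lower in WT at -1.06 ± 0.15 (limma adjusted p = 0.00145).

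Markers of other root cell types were listed lower to different extents in the same seedlings. Root hair markers were listed lower for 7 of 8 genes in WT, 8 in snrk1a-2, 6 in jmj15-2, 7 in crf6-2 and 1 in SnRK1aOX, of which 4, 8, 1, 7 and 0 passed the refit. Summed over the 7 listed root hair genes, adjusted counts in WT ranged from 1421 to 6088 in mock and from 695 to 983 after treatment. Both cortex markers (AT1G62500 and AT1G09750) were listed lower and passed in all 5 lines, with WT sums of 8137 to 13208 in mock and 2822 to 3774 after treatment. The root hair and cortex sums hold only genes called lower, so their direction was set by the listing. The stele list had 3, 3, 1, 1 and 1 of 9 genes listed lower, and the root cap and meristem list 3, 4, 1, 1 and 0 of 6, of which 3, 2, 1, 1 and 1 and then 1, 3, 1, 0 and 0 passed. Of 7 leaf mesophyll markers none was listed lower, and CA1 (AT3G01500), a carbonic anhydrase, was listed higher in WT, crf6-2 and SnRK1aOX. The part of a smaller share of root RNA in the falls of the members was not tested.

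**Figure D4:**
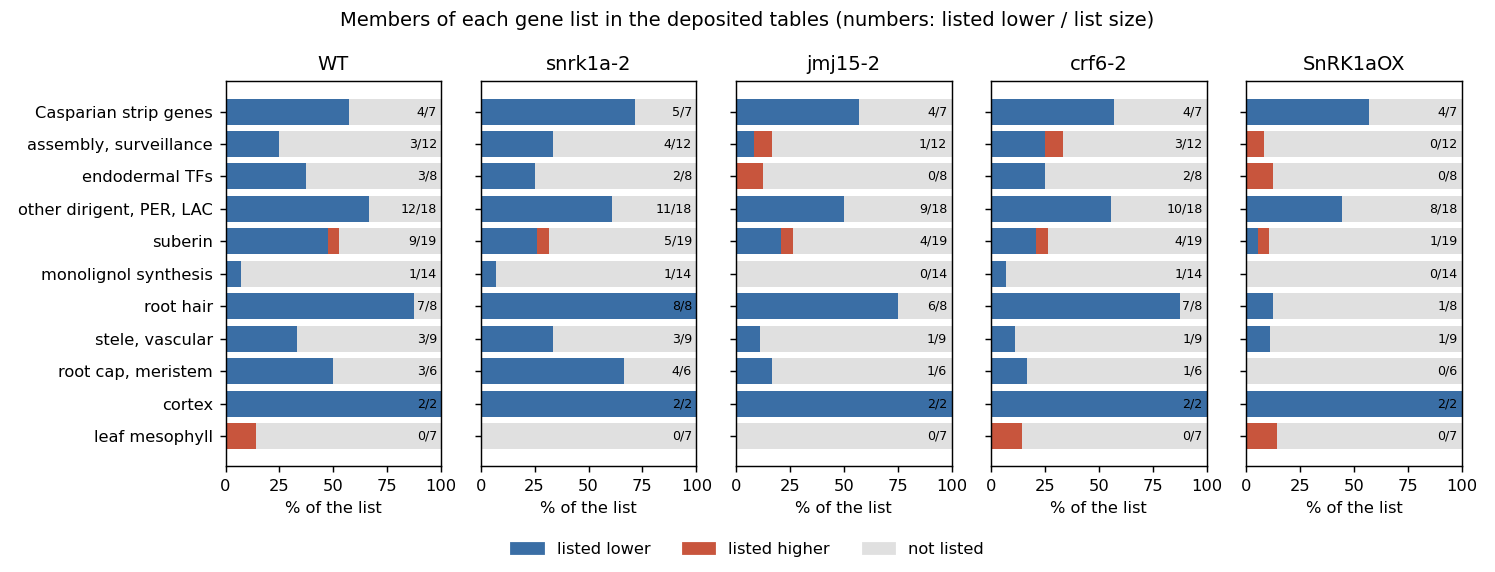
Share of each gene list that the authors listed lower (blue), listed higher (red) or did not list (grey) in each line, in percent of the list, with the count listed lower and the size of the list printed at the right of each bar. Part of the Casparian strip genes and of the other dirigent, peroxidase (PER) and laccase (LAC) genes are listed lower in every line. The same holds for the suberin, root hair and stele lists, and the cortex list is lower throughout. Monolignol synthesis is nearly all grey.

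Whole gene families, a step added after the data were seen, placed the members among their relatives. Of 34 other genes of the family UPF0497, to which the scaffold genes belong, 7, 6, 4, 5 and 2 were listed lower in WT, snrk1a-2, jmj15-2, crf6-2 and SnRK1aOX, and 1, 2, 2, 1 and 2 higher. Of 25 other dirigent genes 13, 12, 11, 13 and 7 were listed lower and 1 was listed higher in each line. Of 73 other peroxidase genes 32, 31, 21, 28 and 12 were listed lower and 7, 8, 9, 8 and 10 higher. All 3 families thus had genes listed in both directions.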

How the data were processed

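The 30 whole-seedling RNA libraries were assigned to line, treatment and library number by the sample titles. Columns named kin10-2 and KIN10V17 were read as snrk1a-2 and SnRK1aOX, since each table carries the name of its line and KIN10 also denotes SnRK1a. Per the submitters' processing notes, Bowtie 0.12.2 aligned the reads to TAIR10. How genes were counted, normalised and tested, and whether libraries were stranded, is not given in the sources used here.

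The deposited signal per library is, per the file headers and the values, a number of reads scaled by the authors for library size, table by table. A log2 fold change, a p-value and a q-value per gene were deposited beside it, with −log10 of q in the deposited WT and jmj15-2 tables. From these deposited values, every listed gene has a q below 0.05 and a log2 fold change beyond 1 in either direction. The ratio of q to p and rank implies 23742 tested genes in WT, 23834 in snrk1a-2, 23758 in jmj15-2, 23783 in crf6-2 and 23728 in SnRK1aOX. Depth is unknown, so no counting interval is given.

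Changes were refitted per table with limma 3.58.1 (R 4.3.3) on log2(value + 1), with moderated variances with trend, two-sided, and Benjamini-Hochberg adjustment over the implied number of tested genes. The variances were moderated toward those of genes that had already been selected. The design had foreseen edgeR for raw counts of all genes, which these tables are not. Differences between lines were interaction terms over genes listed in both tables. The fit was tested on simulated data. The alternatives, in the closing section, were other pseudocounts, a minimum mean of 50, moderation without trend, adjustment over listed genes, a common scale within groups, a replicate block, the authors' own fold changes and each library left out. Every member is named, and 1 further gene of the set is not reported here. From other lists, genes listed in all 5 tables and at most 4 others with the largest authors' change in WT are named, apart from those said to be named later. Members and lists were chosen with earlier results of these data known. Sequences and annotation are RefSeq's on TAIR10.1, in which all 7 members were found. Python 3.11.15 was used for the descriptions.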

Additional observations from a re-analysis of the deposited data

How the results depend on the processing

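Of 293 values of single member changes under other settings, 263 kept their direction and side of the threshold, 9 no longer passed, 21 passed only then and 0 changed sign. In WT and in every difference between lines the number of members that passed stayed the same under all alternatives run. In snrk1a-2 it was 4 at a mean of at least 50, where CASP5 was filtered out, and 5 otherwise, and in crf6-2 it was 3 to 4 with a library left out. In jmj15-2, where 2 passed, 1 passed at a mean of at least 50, 4 with adjustment over the listed genes or by the authors' q, and 1 to 2 with a library left out. In SnRK1aOX, where 0 passed, 1 passed without trend, 1 with a common scale within each group, 4 with adjustment over the listed genes or by the authors' q, 0 to 2 with a library left out and 3 with both libraries numbered 1 left out, where 37.9% of the genes listed lower passed. Those libraries were picked for the members' own values, so that count supports nothing. Every listed gene has an authors' q under 0.05 by construction, and with adjustment over the listed genes 97.2% of them passed in jmj15-2 and 97.5% in SnRK1aOX, so neither count tells the members apart.

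The replicate numbers do not pair the samples: same-numbered mock and treated libraries deviated together with correlations from -0.43 to 0.20. With the replicate block 4, 5, 2, 4 and 0 members passed in WT, snrk1a-2, jmj15-2, crf6-2 and SnRK1aOX. In jmj15-2 CASP5 (limma adjusted p = 0.0623) no longer passed under the block and CASP1 did (0.0168).

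Of 253 values of single differences from WT under other settings, 24 changed sign. The ranges with a library left out of the differences that did so were, in jmj15-2, -0.22 to 0.42 for CASP1 and -0.43 to 0.013 for PER64, in crf6-2, -0.073 to 0.30 for PER64, and in SnRK1aOX, -0.50 to 0.33 for CASP1 and -0.25 to 0.89 for PER64. With both libraries numbered 1 of SnRK1aOX left out, the differences were -0.80 for CASP1 and -0.80 for PER64. The cause was not tested. Since genes below the authors' thresholds are not in the tables, nothing can be said of the levels of ESB1 and MYB36.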
